A study of Mus musculus with 86 samples.

Results

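Kinesins are microtubule motors, and this account covers the RNAs of the mouse kinesin family in cultured neuronal cells with and without TDP-43, an RNA-binding protein that prefers UG-rich RNA. Members were the protein-coding genes whose symbol starts with Kif or Klc followed by a number, with 1 of these genes left out and with Kif1bp, which encodes a kinesin-binding protein, kept. They came to 42 of the 21921 protein-coding genes with a transcript in the mouse files. Following their known roles they were described as 16 transport kinesins, 12 mitotic kinesins and 14 other members. The choice and the groups rest on gene symbols and known roles, but were made with earlier results of these data known.

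RNA-seq was performed on soma and neurite fractions, which were separated by growing cells on porous membranes that let neurites but not cell bodies through. CAD cells are a catecholaminergic mouse neuronal line and N2A cells a mouse neuroblastoma line. In the knockout experiment both lines were CRISPR clones that lack endogenous TDP-43 and carry a single HA-tagged TDP-43 transgene that doxycycline turns off. Cells without doxycycline are the wild-type group and cells given doxycycline for 48 h (2 µg/mL per the labels, while the study's methods give another dose) the knockout group, so doxycycline and loss of TDP-43 cannot be told apart. In a second experiment CAD cells expressed a doxycycline-induced, HA-tagged TDP-43 transgene, either with the WT sequence or with the Q331K substitution, and both groups received doxycycline. Each of the 12 groups held 3 libraries. The labels number the replicates and say no more of their origin, so p-values measure the spread between these libraries, which may be technical.

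Kinesin-1, built from KIF5 heavy chains and KLC light chains, the kinesin-2 motors and the kinesin-3 motors carry vesicles, organelles and protein or RNA cargoes along axons and dendrites, mostly away from the cell body. The mitotic kinesins build and shorten the spindle, move chromosomes and complete cytokinesis, and their RNAs are made mainly in dividing cells. Several transport kinesin RNAs are themselves known residents of neuronal projections.

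Sequences are shown for a promoter element shared by most mitotic kinesins and for GU-rich 3′ UTR sites of members whose RNA levels are described in detail. The promoter element is the cell cycle genes homology region, a promoter element of genes that peak at mitosis, searched as TTTGAA or TTCGAA on both strands in RefSeq promoters of GRCm38.p6 from 250 bases before to 50 bases after the start site. Promoters were matched for 34 of the 42 members. The element was found in 9 of the 11 matched mitotic kinesins, 1 of the 12 matched transport kinesins and 3 of the 11 matched other members, against 21.7% of the 27025 genes in the table. The mitotic kinesins without a match to these letters were Kif18a and Kif2b. CCAAT or its complement ATTGG, another promoter element of such genes, stood in 7 of the 11 mitotic promoters and in 41.1% of all genes. The windows below hold 30 bases, 5′ to 3′ on the gene's strand, with 1 match to the element in capitals. They are from chr19:37376351-37376380 (plus strand), chr19:34922353-34922382 (plus strand), chr9:61946780-61946809 (minus strand), chrX:100626072-100626101 (plus strand), chr11:102925104-102925133 (minus strand), chr7:127042420-127042449 (minus strand) and, for the transport kinesin, chr1:93082507-93082536 (minus strand).
Kif11: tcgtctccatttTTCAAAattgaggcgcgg
Kif20b: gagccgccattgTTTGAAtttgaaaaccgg
Kif23: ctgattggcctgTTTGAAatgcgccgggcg
Kif4: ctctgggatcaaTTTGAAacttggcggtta
Kif18b: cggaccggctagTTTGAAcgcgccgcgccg
Kif22: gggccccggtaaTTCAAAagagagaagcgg
Kif1a: tttgacagcctcTTTGAAcattgctcctaa
The marked match began at position -19 in Kif11, 8 in Kif20b, 3 in Kif23, 20 in Kif4, 4 in Kif18b and -17 in Kif22, counted from the start site at 1. In Kif1a it began at position -44 of 1 of its 2 promoters. Kif20b held another match at position 14, in lower case in its window, and Kif22 another at position -215, outside its window.

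The 3′ UTRs were searched for GUGUG, letters that TDP-43 is known to favour, counted with overlaps in the longest annotated 3′ UTR of each gene (GENCODE vM21, GRCm38). Of the 42 members, 31 had at least 1 copy, against 72.4% of the 14621 tested genes with a 3′ UTR. Kif1bp had the most, 36 copies in the 1404 bases of Kif1bp-202 or 25.6 per kb, a density higher than in 99.5% of those genes. The transcript of Kif1bp with the highest mean TPM, Kif1bp-201, ends in a 3′ UTR of 538 bases with 0 copies. Kif3c had 28 copies in 3609 bases (7.76 per kb) in its longest 3′ UTR and 17 in 1179 bases in its most abundant transcript. Kif1b held 14 copies and Kif5c 10, and the median was 4 copies for the transport kinesins, 0.5 for the mitotic kinesins and 2 for the tested genes. Median 3′ UTR lengths were 2504, 541.5 and 1204 bases in that order. Median densities were 2.01, 0.745 and 1.49 per kb, and mean densities 2.36, 1.34 and 2.32 per kb. The sites below, printed as RNA with the longest alternating GU run in capitals, are from chr10:62539417-62539446 (minus strand), chr12:3402938-3402967 (plus strand), chr4:149180076-149180105 (minus strand) and chr2:49772598-49772627 (plus strand).
Kif1bp: gugugugaGUGUGUGUGUGUGUuugagagu
Kif3c: cguguguguuUGUGUGUGUGguauguaugc
Kif1b: ucuguaUGUGUGUGUGUGUGUGUcugucug
Kif5c: gaaaaaguuaaUGUGUGUGcuuaugcacau
A match in either search describes the letters of these windows and shows neither binding nor regulation.

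Libraries held 22726534 to 32895542 estimated counts in the knockout experiment and 9783050 to 15870647 in the transgene experiment. Tardbp, the gene of TDP-43, stood at 491 to 569 CPM (counts scaled to a common library size by TMM) in wild-type and at 90.4 to 150.0 in knockout CAD libraries, and at 546 to 695 and 160.0 to 265 in N2A libraries. The neuronal genes Tubb3, Snap25, Stmn2 and Gap43 were present in every library, and the neurofilament genes Nefl and Nefm were at 0.15 TPM or less in all of them. A list of 5 nuclear RNAs summed to 124 to 385 TPM in wild-type CAD soma and to 25.5 to 39.4 TPM in wild-type CAD neurites, and to 218 to 659 and 32.2 to 47.6 TPM in the N2A fractions. In TPM the neuronal markers fell too, from a mean sum of 1646 in wild-type CAD soma to 705 in neurites. On the CPM scale the fitted log2 ratio of neurite over soma had a median of -1.45 over the nuclear RNAs in wild-type CAD cells. It was -1.86 in wild-type N2A cells. At an FDR of 0.01, 3 and 5 of the 5 were called lower, against 17.7% and 26.6% of all genes. After the filter on low counts 39 members were tested in CAD cells, 34 in N2A cells and 38 in the transgene cells. Kif2b and Kif12 had 0 counts in all 36 libraries, and Kif28 did not exceed 0.111 TPM as a group mean.

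TPM, the transcript share of a library, is a scale per length on which genes of one library can be compared. The 3 heavy chains of kinesin-1 summed to 184 ± 34.1 TPM (SD, n = 3) in wild-type CAD soma and 237 ± 19.7 TPM in wild-type N2A soma. The 4 light chains summed to 122 ± 15.5 and 186 ± 15.7 TPM. In CAD soma the most abundant single members were Kif1b at 126 ± 21.7 TPM, Kif5c at 85.4 ± 15.9 TPM, Kif3a at 69.4 ± 11.6 TPM and Kif1a at 67.9 ± 9.47 TPM. The libraries of Kif1b stood above those of the other three, whose libraries overlapped. In N2A soma Klc1 at 144 ± 13.3, Kif1b at 140.0 ± 4.97 and Kif5c at 132 ± 13.4 TPM overlapped. All 12 mitotic kinesins together came to 18.6 ± 1.70 TPM in wild-type CAD soma and 42.6 ± 1.58 TPM in wild-type N2A soma. In the soma of CAD cells with the WT transgene, a separate experiment with which no comparison was made, they summed to 115 ± 27.7 TPM. Between fractions, this scale is used only for the lists above and for sums of kinesin families below.

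Wild-type soma of the lines differed most in Kif1a, the kinesin-3 motor of synaptic vesicle precursors, which was at 308, 321 and 335 CPM in CAD and at 1.0, 1.92 and 1.29 CPM in N2A libraries. Kif21a and Kif16b were also detected almost only in CAD cells, at 17.5, 18.6 and 16.0 and 8.98, 8.63 and 8.85 CPM against at most 0.179 CPM in any wild-type N2A soma library. Kif21b, which like Kif21a restrains microtubule growth, had the opposite pattern, at 18.4, 19.0 and 19.1 CPM in N2A and 0.342, 0.710 and 0.848 CPM in CAD soma. In a joint fit of both lines with edgeR's quasi-likelihood test at an FDR of 0.01, 20 members were higher and 13 lower in CAD soma, where 30.0% and 21.2% of all genes were called. Of the transport kinesins 9 were higher and 2 lower, of the mitotic kinesins 1 was higher (Kif18a) and 10 lower, and of the other members 10 were higher and 1 lower. Kif16b, Kif19a, Kif21a, Kif26b and Kif27, 5 of the 20 higher members, did not pass the filter on low counts in N2A cells and entered the joint fit through CAD cells, so the filter fixed their direction. The 10 lower mitotic kinesins ranged from -1.94 (Kif23) to -0.42 (Kif15) on the log2 scale. The knockout lines were derived from single cells, so line and clone cannot be told apart. Without replicate 2 of every group, 11 of these 33 calls were lost, among them Kif5b, Klc1 and Klc4 of kinesin-1 and Kif18a, Kif20a, Kif22 and Kif15 of the mitotic kinesins.

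The distribution between fractions was expressed as LR, the log2 ratio of the neurite over the soma level. In wild-type CAD cells and on the CPM scale, the RNAs of kinesin-1 and of the kinesin-3 motors Kif1a and Kif1b were higher in neurites. The other transport kinesins were close to even on that scale. The size of the excess depended on the scale. In summed TPM the kinesin-1 heavy chains stood at 184 ± 34.1 (SD, n = 3) in soma and 1073 ± 304 in neurites. The light chains stood at 122 ± 15.5 and 141 ± 31.0 TPM, with overlapping libraries. The heterotrimeric kinesin-2 motors stood at 137 ± 20.3 and 44.1 ± 10.3 TPM. Kif5c, a neuron-enriched kinesin-1 heavy chain, was at 354, 383 and 378 CPM in soma and at 9162, 11886 and 8424 CPM in neurite libraries. Every neurite library was far above every soma library, and the LR was 4.72 ± 0.15 (fitted value ± SE, a 26.4-fold difference). Kif5b, the ubiquitous heavy chain, was at 171, 177 and 177 CPM in soma and 3460, 4548 and 3204 CPM in neurites (LR 4.42 ± 0.16). Kif1a rose from 308, 321 and 335 CPM in soma to 7137, 8830 and 6096 CPM in neurites (LR 4.52 ± 0.15). The third heavy chain, Kif5a, had a smaller LR of 2.44 ± 0.15. Kif1b reached 2.78 ± 0.12, and the light chains followed the heavy chains at 2.88 ± 0.09 for Klc4, 2.47 ± 0.10 for Klc1, 1.57 ± 0.09 for Klc2 and 1.30 ± 0.09 for Klc3. Lowest among the called transport kinesins were Kif3a, a kinesin-2 subunit, at 0.31 ± 0.06 (-0.37 with libraries scaled by their totals alone) and Kif13b, a kinesin-3 motor, at -0.43 ± 0.08. In all, edgeR's quasi-likelihood test called 10 transport kinesins higher and 1 lower in neurites, where 23.7% of all genes were called higher and 17.7% lower. The median LR was 1.43 over the 16 transport kinesins and -0.02 over all 17343 genes tested. Without replicate 2 the calls of Kif3a and Kif13b were lost, and without replicate 1 that of Kif3a. An excess in neurites here is relative to the other RNAs of the fraction, and in bulk fractions fewer cells and less RNA per cell cannot be told apart.

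**Figure D1:**
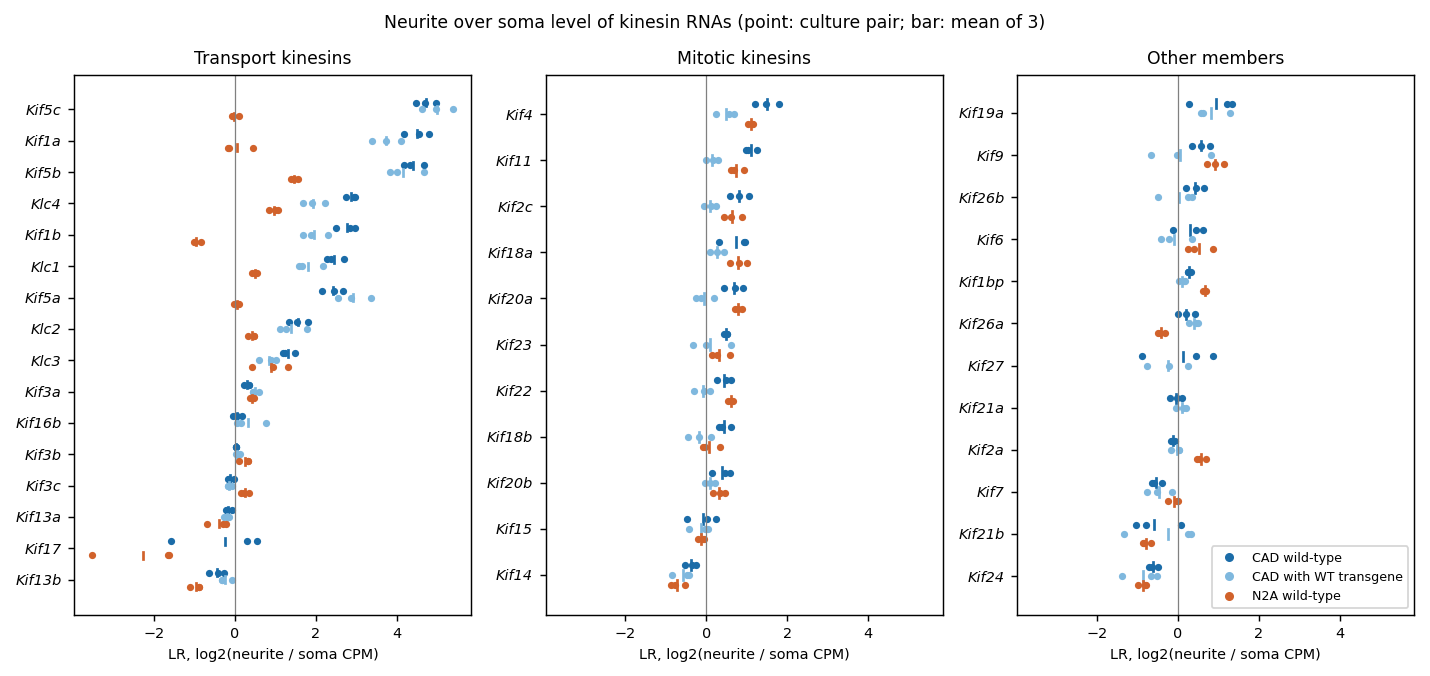
LR (log2 of the neurite over the soma level, CPM scaled by TMM, x axis) of each member (y axis) in wild-type CAD cells, CAD cells with the WT transgene and wild-type N2A cells. A point stands for each of 3 pairs of libraries with the same replicate number, and a bar for their mean. The numbers paired the libraries in wild-type CAD cells only. Kif5c, Kif1a and Kif5b lie above 3 for all CAD points and below 2 for all N2A points.

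Kif5c, Kif5b and Kif1a also had the 3 highest LRs in the separate libraries of CAD cells with the WT transgene. There the LR was 5.01 ± 0.17 for Kif5c, 4.20 ± 0.18 for Kif5b, 3.78 ± 0.19 for Kif1a, 2.96 ± 0.16 for Kif5a and 1.99 ± 0.14 for Kif1b. With edgeR's quasi-likelihood test 9 transport kinesins were called higher and 0 lower, against 14.9% and 12.6% of all genes, and each of the 9 calls held without any 1 replicate. Klc3, at 0.89 ± 0.40, and Kif13b, at -0.23 ± 0.08, which were called in CAD cells of the knockout experiment, missed the threshold here.

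In wild-type N2A cells and on the CPM scale, Kif5c and Kif5a were nearly even between fractions, Kif5b was moderately higher and Kif1b lower in neurites. In summed TPM the kinesin-1 heavy chains stood at 237 ± 19.7 (SD, n = 3) in soma and 105 ± 40.0 in neurites. The light chains stood at 186 ± 15.7 and 61.3 ± 13.6 TPM, and neither family overlapped between fractions. With libraries scaled by their totals alone, the LR was -0.34 for Kif5c and -0.28 for Kif5a. Kif5c was at 549, 607 and 584 CPM in soma and 522, 648 and 564 CPM in neurites, and the fractions overlapped (LR -0.00 ± 0.16). Kif5a, at 250.4, 268 and 224 CPM in soma and 247, 289 and 236 CPM in neurites, also overlapped (LR 0.06 ± 0.18). Kif5b kept an excess in neurites, with 131, 145 and 145 CPM in soma and 343, 424 and 399 CPM in neurites (LR 1.47 ± 0.15). Kif1b was on the opposite side of 0 from CAD cells, falling from 767, 763 and 721 CPM in soma to 385, 377 and 404 CPM in neurites (LR -0.95 ± 0.09). The highest called LRs after Kif5b were those of Klc4 (0.96 ± 0.15) and Klc3 (0.89 ± 0.23). The lowest were those of Kif17, a kinesin-2 motor at under 1 CPM (-2.05 ± 0.56), of Kif13b (-0.96 ± 0.08) and of Kif1b. With edgeR's quasi-likelihood test 7 transport kinesins were called higher and 4 lower, where 32.5% and 26.6% of all genes were, and the median LR over the 15 tested was 0.25. That median turned to -0.087 with libraries scaled by their totals alone, -0.081 with protein-coding transcripts, -0.044 with upper-quartile scaling and -0.016 with length-scaled counts. With libraries scaled by their totals alone, 6 of the 34 members were called higher and 9 lower, and with upper-quartile scaling 7 and 9, against 16 and 8. The shares of all genes called under those scalings are not given here, so these shifts cannot be read as particular to the members. Leaving out replicate 2 removed 7 of these 11 calls (Kif13a, Kif17, Kif3a, Kif3c, Klc1, Klc2 and Klc3).

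Tested directly in the joint fit, the LR differed between the wild-type lines for 13 members, 10 of them higher in CAD cells (4.82% of all genes) and 3 lower (13.6%). The difference of CAD minus N2A was 4.72 ± 0.23 for Kif5c, 4.32 ± 0.67 for Kif1a, 3.72 ± 0.15 for Kif1b, 2.94 ± 0.23 for Kif5b and 2.37 ± 0.25 for Kif5a. Klc1, Klc4, Klc2 and Kif13b followed with 1.98, 1.91, 1.14 and 0.52, and Kif26a, outside the transport group, with 0.62. The LR was lower in CAD cells for Kif2a, a microtubule depolymerase (-0.69), Kif1bp (-0.39) and Kif3c (-0.37). Of the 11 mitotic kinesins 0 were called by edgeR's quasi-likelihood test, with 0 at an unadjusted p under 0.05 and 0 by DESeq2. With libraries scaled by their totals alone 8 members were called higher and 5 lower. Without replicate 2 of every group, 8 of the 13 calls held, namely Kif5a, Kif5b, Kif5c, Kif1a, Kif1b, Klc1, Klc2 and Klc4.

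Mitotic kinesin RNAs had a median LR of 0.49 in wild-type CAD cells, below that of the transport kinesins, and of 0.60 in wild-type N2A cells, above it. In CAD cells 7 of 11 were called higher in neurites by edgeR's quasi-likelihood test and 0 lower, against 23.7% and 17.7% of all genes, from 1.48 ± 0.13 for Kif4, a chromokinesin, 1.09 ± 0.14 for Kif11, the motor that separates the spindle poles, and 0.78 ± 0.19 for Kif2c, a microtubule depolymerase, down to 0.69 ± 0.11 for Kif20a, 0.45 ± 0.13 for Kif22 and 0.44 ± 0.12 for Kif18b. Kif20b, a cytokinesis motor, had an LR of 0.41 ± 0.14 and missed the threshold. In wild-type N2A cells 6 of 11 were higher and 1 lower, against 32.5% and 26.6% of all genes. They were led by Kif4 (1.11 ± 0.14), Kif18a (0.81 ± 0.18) and Kif20a (0.80 ± 0.12) and ending with Kif2c (0.66 ± 0.16) and Kif22 (0.60 ± 0.12), and Kif14, another cytokinesis motor, was the lower one (-0.73 ± 0.15). In CAD cells with the WT transgene 0 of 11 were called, against 14.9% and 12.6% of all genes, with 2 at an unadjusted p under 0.05 and 0 by DESeq2. Of all 13940 genes, 6583 were at that unadjusted p. The directions of the mitotic kinesins depended on the scaling. With libraries scaled by their total counts alone, the median LR of all genes moved from -0.02 to -0.69 in CAD cells, from -0.03 to -0.37 in N2A cells and from -0.01 to -0.53 in the WT-transgene cells. The number of mitotic kinesins with an LR above 0 then went from 9 to 5, from 9 to 6 and from 6 to 0 of 11. Transport kinesins above 0 went from 12 to 9 of 16, 10 to 6 of 15 and 12 to 9 of 15, and the LRs of Kif5c, Kif1a and Kif5b in CAD cells were still 4.04, 3.83 and 3.73. Kif22 and Kif18b turned to -0.23 each in CAD cells, and Kif2c turned to -0.11 with length-scaled counts. Members called higher and lower went from 20 and 3 to 10 and 14 in CAD cells and from 9 and 1 to 8 and 13 in the WT-transgene cells. The shares of all genes called under that scaling are not given here, so these shifts cannot be read as particular to the members. Without replicate 2, 4 of the 7 mitotic calls in CAD cells and 3 of the 7 in N2A cells were lost.

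With knockout of TDP-43, 10 or 11 of the 11 mitotic kinesins tested rose in each line and fraction, and 3 of the 10 calls in N2A neurites held in every fit that left out 1 replicate. Kif11 went from 3.13, 2.51 and 3.53 to 12.5, 12.5 and 12.4 CPM in CAD soma and from 9.32, 7.77 and 8.32 to 21.0, 23.6 and 24.1 CPM in N2A soma. Its groups did not overlap in either line (2.03 ± 0.13 and 1.44 ± 0.09 on the log2 scale). Kif4 went from 1.45, 1.17 and 1.64 to 6.24, 6.44 and 5.84 CPM in CAD soma (2.12 ± 0.12) and from 5.37, 5.77 and 4.19 to 10.2, 10.4 and 12.3 CPM in N2A soma (1.11 ± 0.14). Kif2c rose from 1.63, 1.34 and 0.961 to 5.22, 5.97 and 5.17 CPM in CAD soma (2.05 ± 0.17) and by 1.30 ± 0.16 in N2A soma. Kif15, a spindle motor that acts beside Kif11, had the largest mitotic change in CAD neurites, from 2.08, 2.30 and 2.38 to 8.59, 9.07 and 10.6 CPM (2.06 ± 0.15), and in N2A neurites (1.30 ± 0.12). Kif20b rose by 1.62 ± 0.13 in CAD soma and 0.86 ± 0.14 in N2A soma, and Kif20a by 1.97 ± 0.10 and 1.28 ± 0.12. The smallest change in CAD cells was that of Kif18a, 0.69 ± 0.15 in soma and 0.66 ± 0.15 in neurites.

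Counted with edgeR's quasi-likelihood test at an FDR of 0.01, 11 of 11 mitotic kinesins were higher in knockout CAD soma (11.2% of all genes), 11 of 11 in CAD neurites (11.8%), 10 of 11 in N2A soma (10.9%) and 10 of 11 in N2A neurites (6.48%). The exceptions were Kif14 in N2A soma (0.49 ± 0.14) and Kif18a in N2A neurites (0.59 ± 0.18). The number called lower was 0 in each, where 11.6%, 13.5%, 5.15% and 5.1% of all genes were. Medians over the 11 were 1.78, 1.62, 1.03 and 0.84, against medians of 0.00, 0.00, -0.02 and -0.01 over all genes. Of 22 other mitotic genes, a list that holds no kinesin, 22, 22, 22 and 21 were higher in the same order of comparisons. The summed level of markers of other cell types overlapped between genotypes, at 6.57 to 7.66 TPM in wild-type and 6.93 to 8.17 TPM in knockout CAD soma, as did that of the neuronal markers at 1281 to 1900 and 1196 to 1675 TPM. In N2A soma the sums were 9.45 to 11.1 and 6.75 to 11.6 TPM for other cell types and 805 to 1065 and 943 to 1071 TPM for neuronal markers. Single markers did change with knockout in CAD soma, where Pecam1 (0.38), of endothelial cells, and Elavl4 (0.46) were higher and Stmn2 (-0.50) lower. Of the 8 neuronal markers tested 1 was higher and 1 lower in CAD neurites, 3 and 0 in N2A soma and 0 and 1 in N2A neurites, and their part in the mitotic changes was not tested. Of the 5 and 4 markers of other cell types tested in CAD and N2A cells, 1 was higher in CAD neurites and 0 changed in N2A cells. Of the calls, 10 of 11 in each CAD fraction and 9 of 10 in N2A soma held in each fit that left out 1 replicate, Kif18a being the exception. In N2A neurites 3 of 10 held, and without replicate 2 the calls of Kif14, Kif18b, Kif20a, Kif22, Kif23, Kif2c and Kif4 were lost.

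**Figure D2:**
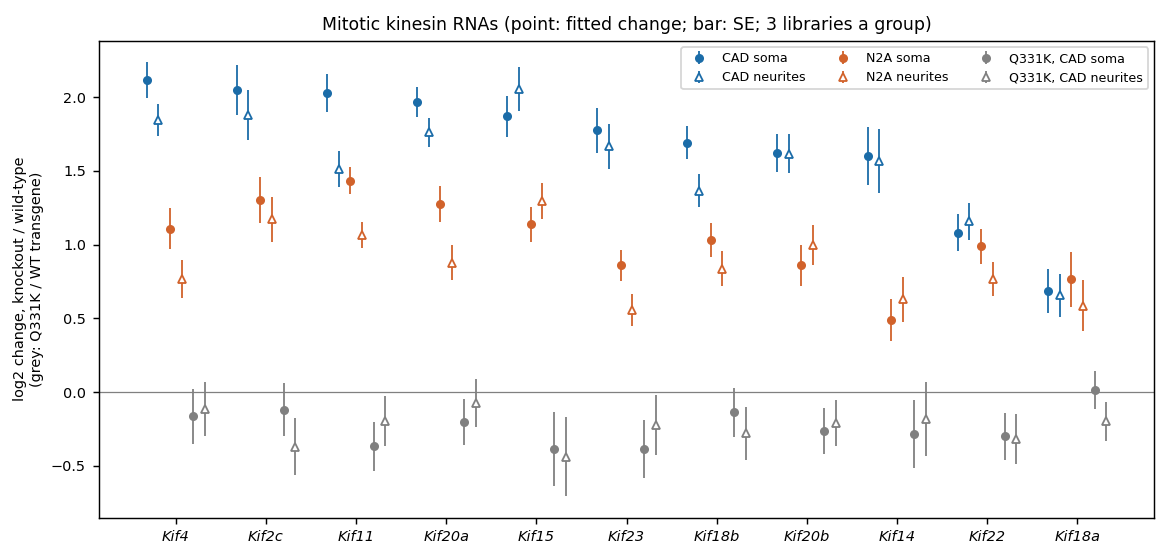
Fitted log2 change (y axis, bars are SE) of the 11 mitotic kinesins tested (x axis) with knockout in CAD and N2A soma and neurites and, in grey, with Q331K against the WT transgene in CAD cells. All knockout points lie above 0, from 0.49 to 2.12, while the Q331K points lie between -0.44 and 0.02.

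The rise in soma was smaller in N2A than in CAD cells for 10 of the 11, and the difference itself passed edgeR's quasi-likelihood test in the joint fit for 4, where 2.64% of all genes were called in that direction. The difference of N2A minus CAD was -1.04 ± 0.24 for Kif14, -0.93 ± 0.19 for Kif4, -0.84 ± 0.19 for Kif23 (0.078 with length-scaled counts) and -0.61 ± 0.16 for Kif20a. In the opposite direction, with 7.87% of all genes, Kif3b and Kif7 were called, so that 2 members were higher and 4 lower, against 1 and 8 with upper-quartile scaling and 1 and 7 with libraries scaled by their totals alone. Without replicate 2 of every group 0 of the 6 calls were left, and the comparison was added after the values had been seen.

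Knockout changes of the transport kinesins were fewer and went both ways. Kif5a, the heavy chain whose mutations cause motor neuron disease and spastic paraplegia, rose from 157, 175 and 170.5 to 253, 259 and 233 CPM in CAD soma (0.57 ± 0.14) and from 857, 1114 and 753 to 1456, 2183 and 1953 CPM in CAD neurites (1.04 ± 0.14). The groups did not overlap in either fraction. In N2A cells its soma level was 250.4, 268 and 224 CPM in wild-type and 282, 288 and 296 CPM in knockout libraries, which passed no threshold (0.22 ± 0.18). Its N2A neurite level rose from 247, 289 and 236 to 817, 808 and 431 CPM (1.41 ± 0.18), with the third knockout library well below the other two. Kif5c rose in N2A neurites as well, from 522, 648 and 564 to 1547, 1677 and 949 CPM (1.27 ± 0.16), again least in the third library, while its other changes were between 0.01 and 0.15 and passed no threshold. Kif5b passed no threshold in any fraction of either line (0.01, -0.18, 0.18 and 0.52 in CAD soma, CAD neurites, N2A soma and N2A neurites), and neither did Kif1a.

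Kif3c, a neuronal kinesin-2 subunit, was the transport kinesin that rose in all 4 comparisons. It went from 78.5, 77.5 and 76.7 to 120.1, 123 and 131 CPM in CAD soma and from 80.6, 79.9 and 80.5 to 128, 142 and 146 CPM in N2A soma. The groups were apart in each case, with changes of 0.68 ± 0.06 and 0.79 ± 0.08 in soma and 0.75 ± 0.06 and 0.57 ± 0.08 in the neurites of the same order of lines. Kif3b, another kinesin-2 subunit, fell in CAD cells, from 143, 143 and 145 to 114, 112 and 109 CPM in soma (-0.36 ± 0.05) and by 0.51 ± 0.05 in neurites. In N2A soma it changed by 0.04 ± 0.08, and the difference between the lines passed the test (0.48 ± 0.10). Kif3a, the third of these subunits, fell in CAD neurites (-0.33 ± 0.06). Kif17, another kinesin-2 motor, had the largest transport change in CAD soma, from 0.685, 0.710 and 0.452 to 2.53, 2.34 and 2.07 CPM (1.90 ± 0.37). Its groups did not overlap, and the call was lost without replicate 3. Kif13a, a kinesin-3 motor of endosomes, fell in CAD neurites (-0.62 ± 0.11), N2A soma (-0.52 ± 0.11) and N2A neurites (-0.77 ± 0.11), and Kif13b fell in N2A soma (-0.41 ± 0.07). In CAD soma edgeR's quasi-likelihood test called 3 of 16 transport kinesins higher and 1 lower (11.2% and 11.6% of all genes), and in CAD neurites 2 and 4 of 16 (11.8% and 13.5%). In N2A soma it called 1 and 2 of 15 (10.9% and 5.15%) and in N2A neurites 6 and 1 of 15 (6.48% and 5.1%). Several of these shares were near those of all genes. In N2A neurites Kif1b (0.42 ± 0.09), Klc1 (0.49 ± 0.09) and Klc4 (0.82 ± 0.15) made up the 6 with Kif5a, Kif5c and Kif3c, and without replicate 2 the calls of Kif1b, Klc1, Klc4 and Kif3c were lost. Over all members 17 were higher and 1 lower in N2A neurites, and 16 and 3 with libraries scaled by their totals alone. Klc4 fell in CAD neurites (-0.47 ± 0.08). The call of Kif3b in CAD soma was lost without replicate 2, as was that of Kif3a in CAD neurites, and those of Kif13a and Kif13b in N2A soma were lost without replicate 2 or 3. The call of Kif5a in CAD soma did not hold without any 1 of the 3 replicates.

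**Figure D3:**
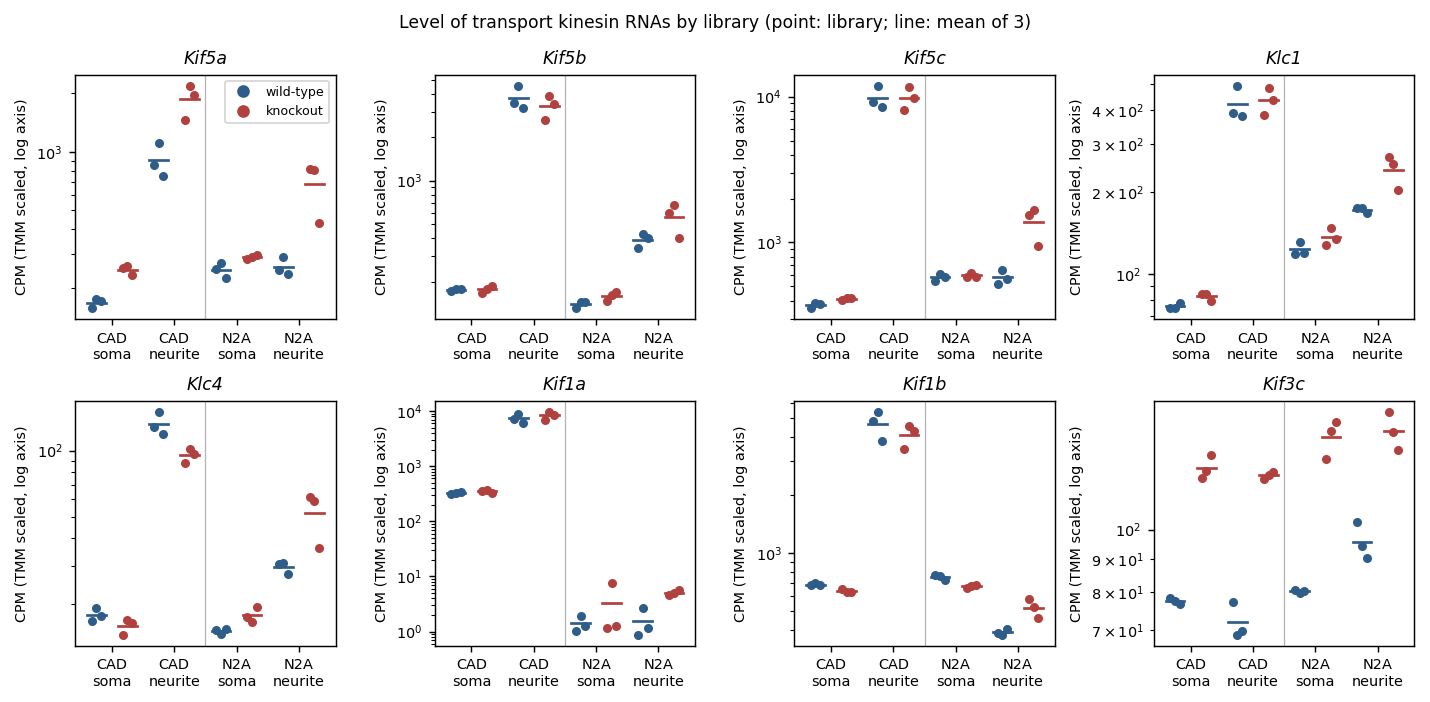
CPM (TMM scaled, log y axis) of 8 transport kinesin RNAs in soma and neurite libraries of CAD and N2A cells (x axis), blue for wild-type and red for knockout, with a point for each library and a line for the mean of 3. Kif5c stands at 8095 CPM or more in all CAD neurite libraries and between 522 and 1677 CPM in the N2A neurite libraries.

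Among the other members, Kif7, a regulator of Hedgehog signalling at the tip of the cilium, fell in CAD cells, from 15.2, 14.5 and 16.5 to 5.95, 5.13 and 6.38 CPM in soma (-1.40 ± 0.14) and by 1.42 ± 0.16 in neurites. In N2A soma it was lower to begin with, at 5.91, 5.27 and 5.41 against 4.22, 4.85 and 6.31 CPM (-0.11 ± 0.19), and the difference between the lines passed edgeR's quasi-likelihood test (1.38 ± 0.25). Kif7 overlaps Ticrr, a DNA replication gene on the opposite strand, and where counting ignores strand reads of the overlap cannot be told apart. Kif9, a kinesin of motile cilia, was called higher in wild-type CAD neurites, and its call was lost with a replicate block (LR 0.56, adjusted p = 0.0139 by edgeR's quasi-likelihood method), where the numbers paired the libraries. Kif26b rose in CAD soma from 5.69, 5.30 and 6.22 to 12.6, 11.5 and 11.5 CPM (1.05 ± 0.11). Kif26a rose in CAD soma (0.41 ± 0.08), N2A soma (0.41 ± 0.10) and N2A neurites (0.81 ± 0.10). Its calls in both soma comparisons were lost without replicate 1 or 2 and that in N2A neurites without replicate 2. The N2A soma call was also lost with length-scaled counts, with protein-coding transcripts and with either other scaling.

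The LR change with knockout, which asks whether the balance of neurite and soma shifted, was called for 1 member. Kif1bp, whose product binds and inhibits a set of kinesin motors, lies at chr10:62538626-62578457 on the minus strand (GRCm38). The GU-rich 3′ UTR shown above belongs to Kif1bp-202, and the most abundant transcript, Kif1bp-201, has 0 GUGUG copies in its 3′ UTR. In N2A cells it was at 40.8, 39.5 and 40.0 CPM in wild-type and 60.9, 63.0 and 61.9 CPM in knockout soma. In N2A neurites it was at 66.2, 63.3 and 61.8 CPM in wild-type and 62.3, 63.9 and 63.0 CPM in knockout libraries. The soma groups were apart (0.63 ± 0.06) and the neurite groups overlapped (-0.02 ± 0.06), so the LR went from 0.70, 0.68 and 0.63 to 0.03, 0.02 and 0.02 in replicates 1 to 3. The LR change was -0.64 ± 0.09 with an adjusted p of 0.00487 by edgeR's quasi-likelihood method, where 0.0112% of all genes were called lower and 0.0893% higher. Over the alternatives run, its value stayed between -0.79 and -0.49, and the adjusted p ranged from 9.92e-10 (DESeq2) to 0.457 (without replicate 2). The call was lost with the replicate number as a block (0.0133), although the numbers did not pair the N2A neurite and soma libraries, without replicate 1 (0.0449), replicate 2 (0.457) or replicate 3 (0.0680) and with length-scaled counts (0.0129). In CAD cells Kif1bp rose in soma from 44.6, 46.0 and 48.9 to 63.2, 70.2 and 64.9 CPM (0.51 ± 0.06) and changed by 0.21 ± 0.06 in neurites, an LR change of -0.30 ± 0.09 that missed the threshold (adjusted p = 0.150 by edgeR's quasi-likelihood method). The difference between the lines was -0.36 ± 0.13 (adjusted p = 0.138 by edgeR's quasi-likelihood method).

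Part of the Kif1bp counts in knockout cells were assigned to annotated transcripts that retain an intron. The protein-coding Kif1bp-201 was at 21.4, 21.7 and 23.9 TPM in wild-type and 34.2, 29.4 and 33.5 TPM in knockout N2A soma. The retained-intron transcript Kif1bp-204 was at 1.82, 3.39 and 5.06 and 20.1, 14.6 and 17.7 TPM, and in CAD soma at 1.43, 3.02 and 3.76 and 12.4, 7.32 and 16.5 TPM. Kif1bp-205, of the same kind, was at 3.12, 3.14 and 0.549 and 16.8, 8.88 and 9.41 TPM in N2A soma. For both transcripts the knockout soma libraries lay above the wild-type soma libraries without overlap. The share of Kif1bp counts on transcripts that are not protein-coding went from 4.84 ± 0.732% to 13.4 ± 0.795% (SD, n = 3) in N2A soma, from 0.918 ± 0.409% to 10.4 ± 3.27% in N2A neurites, from 2.27 ± 0.845% to 9.10 ± 1.46% in CAD soma and from 1.04 ± 1.29% to 4.65 ± 1.09% in CAD neurites. In the transgene experiment it was at most 1.64% as a group mean. Counting protein-coding transcripts alone, the LR change in N2A cells was -0.49 ± 0.09 (adjusted p = 0.00676 by edgeR's quasi-likelihood method) and the soma change 0.38 ± 0.06.

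**Figure D4:**
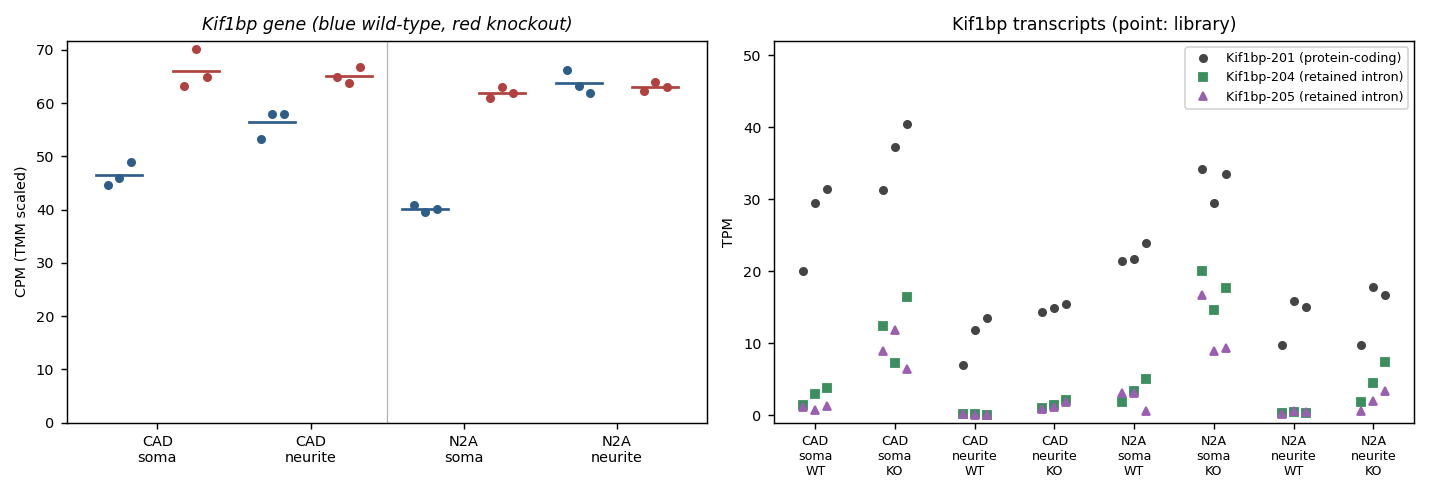
Left, CPM of the Kif1bp gene (y axis) in soma and neurite libraries of both lines (x axis, blue wild-type, red knockout, line for the mean of 3). Right, TPM of its protein-coding transcript Kif1bp-201 and its retained-intron transcripts Kif1bp-204 and Kif1bp-205 in each library, where both of the latter stand at 5.06 TPM or less in wild-type soma and at 6.44 TPM or more in knockout soma.

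No transport kinesin passed the threshold for an LR change, but the kinesin-1 heavy chains Kif5c and Kif5a came near it in N2A cells. LRs were taken over libraries with the same replicate number, although the numbers did not pair the N2A fractions. That of Kif5c was -0.07, 0.09 and -0.05 in wild-type and 1.41, 1.43 and 0.70 in knockout N2A cells. That of Kif5a was -0.02, 0.11 and 0.08 and 1.54, 1.49 and 0.54. For both genes the knockout values were above the wild-type values without overlap. The 5 nuclear RNAs moved the same way in N2A cells, with a median LR change of 1.11 (0.98 to 1.83, 0 called and 2 at an unadjusted p under 0.05), from 218 to 659 TPM in wild-type to 101 to 483 TPM in knockout soma and from 32.2 to 47.6 TPM to 52.2 to 70.5 TPM in neurites. Their part in the LR changes of Kif5c and Kif5a was not tested. In CAD cells the median over the nuclear RNAs was 0.51, with 4 of 5 above 0. The changes were 1.23 ± 0.22 and 1.19 ± 0.25 (adjusted p = 0.0219 and 0.0289 by edgeR's quasi-likelihood method), and DESeq2 called both, with adjusted p of 7.91e-06 and 0.00318. Kif1b was at 0.58 ± 0.12 and Kif2a at -0.45 ± 0.13 (adjusted p = 0.0289 and 0.0472 by the same edgeR test). DESeq2 called Kif1b and Kif2a as well, with adjusted p of 3.78e-04 and 0.00479. The share of all genes that DESeq2 called is not given here, so its calls cannot be read as particular to kinesins. With edgeR, 11 of 34 members and 5582 of 17912 genes had an unadjusted p under 0.05 for the LR change in N2A cells. In CAD cells the change of Kif5c was -0.15 ± 0.18, that of Kif5a 0.47 ± 0.20 and that of Kif1b -0.09 ± 0.16. The difference between the lines was 1.35 ± 0.32 for Kif5c (adjusted p = 0.0442 by edgeR's quasi-likelihood method). None of 39 members was called for an LR change in CAD cells (0.225% of all genes higher, 0.208% lower), with 6 at an unadjusted p under 0.05 and 1 by DESeq2, Kif26b (-0.75 ± 0.15, adjusted p = 0.0248 with edgeR). Of all 17343 genes, 1825 had an unadjusted p under 0.05 for that change. None of 39 was called for the difference between the lines (0.102% of all genes in each direction), with 8 at an unadjusted p under 0.05 and 1 by DESeq2, Kif5c. The share of all genes at that unadjusted p is not given here for the difference between the lines. The median LR change over the transport kinesins was -0.08 in CAD cells and 0.34 in N2A cells, and over the mitotic kinesins -0.11 and -0.19, while over all genes it was -0.01 in both. Over the 22 other mitotic genes it was -0.45 and -0.35, with 21 below 0 in each line. The N2A median of the transport kinesins fell to 0.165 without replicate 1, 0.164 without replicate 2 and 0.0714 without replicate 3.

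**Figure D5:**
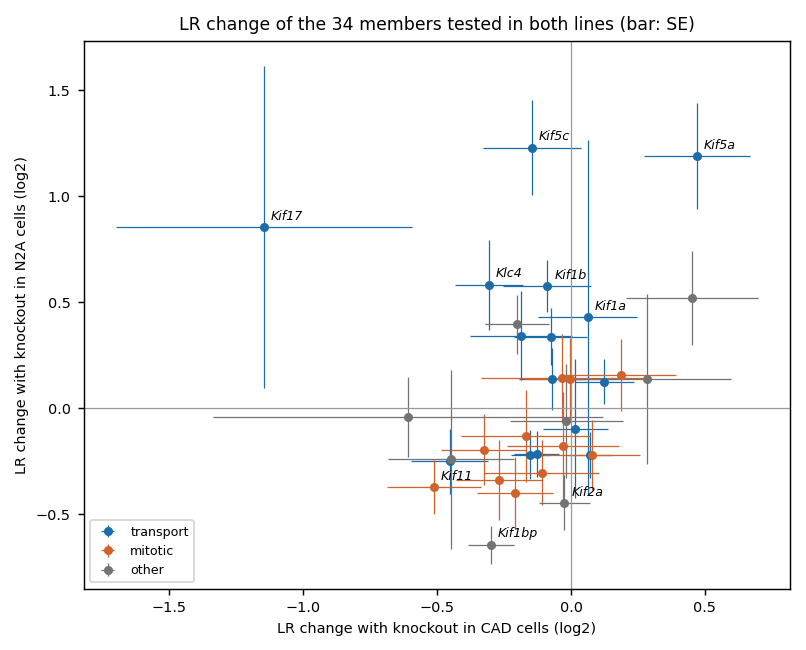
LR change with knockout in CAD cells (x axis) and N2A cells (y axis), fitted log2 values with SE bars, for the 34 members tested in both lines, coloured by group. Kif5c and Kif5a lie at 1.23 and 1.19 on the N2A axis, and Kif1bp at -0.64.

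With Q331K against the WT transgene, edgeR's quasi-likelihood test called 0 of 38 members in soma, in neurites or for the LR change, and 0.0% of all genes in each. At an unadjusted p under 0.05 there were 2, 5 and 0 members, and DESeq2 called 0 in each. For the LR change 605 of the 13940 genes were at that unadjusted p, and the shares for soma and neurites are not given here. Kif5c was at 5988, 9224 and 6774 CPM with the WT and 8817, 8225 and 11642 CPM with the Q331K transgene in neurites. The groups overlapped, and the LR changes of the landmark members were 0.25 ± 0.21 for Kif5c, 0.05 ± 0.21 for Kif5a, 0.24 ± 0.22 for Kif5b, 0.11 ± 0.24 for Kif1a and -0.08 ± 0.11 for Kif1bp. Mitotic kinesins were at -0.39 to 0.02 in soma and -0.44 to -0.07 in neurites.

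Genes that work with kinesins gave the background to these values. Of 22 tested partners, a list of adaptors, Kifc and Cenpe motors and cargo linkers, 6 were higher and 2 lower in knockout CAD soma (11.2% and 11.6% of all genes) and 3 and 0 in N2A soma (10.9% and 5.15%), Cenpe and Kifc1, both motors of dividing cells, rising by 1.34 and 1.21 in CAD soma. For the LR change 2 of 22 partners were lower in CAD cells, Ppfia1 (-1.02) and Plekhm2 (-0.79), and 0 in N2A cells. The dynein and dynactin list, the motor of the opposite direction, had 4 of 22 higher and 5 lower in CAD soma, led by Actr1a (-1.30), and 4 and 2 in N2A soma, beside the same shares of all genes. Its median LR in wild-type cells was 0.28 in CAD and 0.73 in N2A cells, where the transport kinesins had 1.43 and 0.25, the last of which turned below 0 under the 4 settings named above.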

How the data were processed

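RNA-seq libraries of soma and neurite fractions were prepared by the authors from poly(A) RNA. Per the labels reads were trimmed with cutadapt and quantified with Salmon against mm10 (versions not given in the sources used here, and the study's methods name another Gencode release than the one used here for names). The deposited values are estimated counts and TPM per transcript. Transcripts were summed to genes with GENCODE vM21 names, and at most 0.1294% of counts had no gene. Estimated counts were rounded. Genes were filtered with filterByExpr, scaled by TMM and tested with edgeR 4.0.16 (quasi-likelihood, Benjamini-Hochberg, FDR 0.01), in 1 fit for CAD, N2A and transgene CAD cells each and in 1 joint fit for differences between lines. LR changes are interaction terms, and CPM values are TMM scaled. Alternatives were DESeq2 1.42.0, other scalings, no filter, length-scaled counts, an FDR of 0.05, protein-coding transcripts alone, a replicate block and leaving out each replicate number in turn. Shares of all genes called are those of the main fits and are not given for the alternatives. The fits were tested on simulated data.

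The members and lists were chosen with earlier results of these data known. Named members were those called for an LR change, the 3 highest and lowest called LRs per class and line, the 3 largest called knockout changes in each direction, and Kif5a, Kif5b, Kif5c, Kif1a, Kif1bp, Kif11 and Kif20b. Other members were named after their values were seen. Replicate numbers paired the wild-type CAD soma and neurite libraries and the soma libraries of both lines across genotypes (correlations of deviations from 0.13 to 0.60, each above 0.1), and did so in none of the other sets. Counting is not stated to use strand, and Kif3c, Kif5b, Kif7, Kif20a, Kif18a, Kif18b, Kif22, Kif4, Kif13a, Kif26b, Kif27, Kif6, Klc1, Klc2, Klc3, Klc4, Kif2a and Kif1bp overlap genes on the opposite strand.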

Additional observations from a re-analysis of the deposited data

Results flagged for a closer look

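The LR of 13 members differed between wild-type CAD and N2A cells in an interaction test (edgeR's quasi-likelihood test). As CAD minus N2A on the log2 scale, the difference was 4.72 for Kif5c, 4.32 for Kif1a, 3.72 for Kif1b, 2.94 for Kif5b, 2.37 for Kif5a, 1.98 for Klc1, 1.91 for Klc4, 1.14 for Klc2, 0.62 for Kif26a and 0.52 for Kif13b. It was -0.69 for Kif2a, -0.39 for Kif1bp and -0.37 for Kif3c. Kif1a rests on at most 2.64 CPM in the wild-type N2A libraries. Of all genes, 4.82% were called higher and 13.6% lower in CAD cells. The calls of Kif13b, Kif3c, Kif1bp, Kif26a and Kif2a were lost without replicate 2.

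The knockout change in soma differed between the lines for 6 members. As N2A minus CAD it was -1.04 for Kif14, -0.93 for Kif4, -0.84 for Kif23 and -0.61 for Kif20a, and 1.38 for Kif7 and 0.48 for Kif3b. Of all genes, 7.87% were called above 0 and 2.64% below 0 for this difference. Every call among the members was lost without replicate 2.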

How the results depend on the processing

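Of 1979 alternatives for 180 called member results, 1704 kept direction and side of the threshold, 261 lost the call and 14 reversed. Counts of called members were within 1.5 times the reported one in 142 of 176 alternatives. Where a count moved or a result reversed, the cause was not tested. Leaving out replicates gave 13 to 20 calls for the LR in CAD cells (23 reported) and 12 to 20 in N2A cells (24), 7 to 19 for knockout in N2A neurites (18), 8 to 11 for the LR between lines (13), 0 to 3 for the knockout change in soma between lines (6), and 0 to 1 for the LR change in each line. The LR in N2A cells gave 15 calls with library-size scaling and 15 with protein-coding transcripts, and the LR with the WT transgene gave 21 (10 reported) with library-size scaling. The LR change in N2A cells gave 5 calls at an FDR of 0.05 or with DESeq2, 4 without the filter or with protein-coding transcripts, 3 with upper-quartile scaling and 0 with length-scaled counts. The share of all genes called under each alternative is not given here. A count of members that grew or shrank therefore cannot be read as particular to the members. The LR change in CAD cells and its difference between lines each gave 1 at an FDR of 0.05, with DESeq2 or without the filter. Q331K gave 1 call without the filter in soma, in neurites and for the LR change. The knockout change in soma between lines gave 12 at an FDR of 0.05, 11 with DESeq2, 10 with protein-coding transcripts and 3 with length-scaled counts.

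With a replicate block 167 of the 180 calls were kept, none of a knockout change in soma was lost, and the LR change in N2A cells went from 1 call to 0. The correlation of same-numbered libraries was as low as -0.13 in knockout CAD cells.

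With library-size scaling the LR in CAD cells reversed to -0.37 for Kif3a, -0.24 for Kif26b, -0.23 for Kif22, -0.12 for Kif9, -0.40 for Kif1bp and -0.23 for Kif18b, and to -0.020 for Kif3a with the WT transgene. Length-scaled counts reversed Kif2c in CAD cells (-0.11), Klc1 in N2A cells (-0.12) and the line difference of Kif23 (0.078). The LR of Kif3c in N2A cells was -0.087 with library-size scaling, -0.044 with upper-quartile scaling, -0.16 with length-scaled counts and -0.011 with protein-coding transcripts.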
